A study of Mus musculus with 6 samples.

Results

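The genes described here are 51 interferon-stimulated genes and RNA sensors, chosen by their names from the 55487 genes in the count table of mouse pulmonary artery smooth muscle cells (mPASMCs) transfected with small interfering RNA (siRNA). All 51 were found in the table, and 47 of them had enough reads to be tested. The study compared 3 libraries of cells that received a control siRNA, named si-NC, with 3 libraries of cells that received an siRNA against the long noncoding RNA *Snhg18*, named si-*Snhg18*. The mPASMCs were bought from a supplier and used at early passages, and no cells without siRNA were among the 6 libraries, so all values are from cells exposed to a transfected siRNA. The oxygen level and the time between transfection and harvest are not given in the sources used here. For these genes the comparison asks whether their RNA levels differed between cells given the control siRNA and cells given the *Snhg18* siRNA.

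Short RNA duplexes that enter a cell can be recognised by cytosolic receptors of the RIG-I family, by the kinase PKR and, in endosomes, by Toll-like receptors. These receptors signal through adaptors such as MAVS to interferon regulatory factors, which switch on interferon genes. Secreted interferon binds its receptor and activates transcription factors that include STAT2 and IRF9, which bind the interferon-stimulated response element (ISRE) of antiviral effector genes such as the Ifit, Oas, Mx and Gbp families.

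The libraries held 18097718 to 25988746 counted reads, and the members took between 0.116% and 0.248% of them. The floor for a level, set at 3 reads in a library, was worth 0.115 to 0.166 CPM (counts scaled to a common library size). *Snhg18* itself was measured at 23.5, 22.4 and 22.1 CPM in the si-NC libraries and at 10.6, 11.1 and 9.97 CPM in the si-*Snhg18* libraries. It fell by 1.10 on the log2 scale (SE 0.10, adjusted p = 0.00727, edgeR quasi-likelihood test), and the groups did not overlap. Its adjusted p was 0.0659, 0.07 and 0.0703 (edgeR) without si-NC 1, si-NC 3 or si-*Snhg18* 3. The smooth muscle gene *Acta2* was abundant, at 574 to 1040 CPM. Smooth muscle markers summed to 2733 to 3800 CPM, and fibroblast markers to 3040 to 6732 CPM, above the smooth muscle sum in every library. Of 12 leukocyte markers, 4 were tested and 4 had 0 reads in every library, among them *Siglech* of plasmacytoid dendritic cells. The leukocyte markers summed to 71.95 to 156.9 CPM.

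Without pairing, no member passed the test between the groups. With edgeR's quasi-likelihood test and an adjusted p under 0.05 over 14531 tested genes, 0 of 47 tested members were called, against a background of 7.36% of all tested genes (3.65% higher and 3.71% lower). At an unadjusted p under 0.05 there were 3 such members, *Ifit2*, *Ifnar1* and *Samhd1*, which is 6.38% of the members against 24.9% of all genes. The same 3 genes were the members whose groups did not overlap with si-*Snhg18* lower, 6.38% against 15.5% of all genes, and 0 tested members had all si-*Snhg18* libraries higher, against 15.4%. limma-voom called 0 members, against 7.13% of all genes, with 4 (8.51%) at an unadjusted p under 0.05, against 24.7%. DESeq2 called 2 members, *Ifnar1* and *Samhd1* (4.26%), where it called 16.2% of all genes. At an adjusted p under 0.1 edgeR called *Ifnar1* alone, against 13.5% of all genes. The log2 fold changes of the members ran from -1.03 for *Oas2* to 1.20 for *Gbp7*, with a median of 0.14 beside 0.01 for all genes, and 30 were above 0 and 17 below. The median rested on single control libraries. It was 0.67 without si-NC 1, when 39 members were above 0, and -0.10 without si-NC 3, when 17 were. Nothing in the labels places the libraries in separate cultures, so the p-values measure the spread between these libraries, and an exact permutation test of 3 against 3 cannot go below 0.1.

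When same-numbered libraries were treated as pairs, 10 of 47 members (21.3%) passed the test, against 27.2% of all genes. Of these, 7 (14.9%, background 13.6%) were higher with si-*Snhg18*, namely *Adar*, *Gbp7*, *Ifi35*, *Irf1*, *Parp14*, *Psmb8* and *Stat2*, and 3 (6.38%, background 13.6%) were lower, namely *Ifnar1*, *Mavs* and *Samhd1*. *Gbp7* and *Parp14* were the 2 with a change of at least 1.5-fold (4.26%, background 10.1%). None of these shares stood far above that of all genes. The paired count depended on which pair was included. Without the libraries numbered 1 it was 31 of 47 (66%, against 31% of all genes), of which 28 were higher (where 15.4% of all genes were) and 3 lower. Without those numbered 2 it was 9 of 47 (background 24%), and without those numbered 3 it was 0 of 47 (background 4.44%). In the fit without those numbered 3, 10 of 47 members had an unadjusted p under 0.05 (edgeR), as did 3634 of 14674 genes. These fits of 2 pairs, which leave little information on the spread, were added after seeing the data. All 10 members called with 3 pairs kept their direction in each of them. Each of the 10 had all 3 pairs in the same direction, so leaving out a pair could hardly turn it. The kept direction therefore adds no support to the calls.

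**Figure D1:**
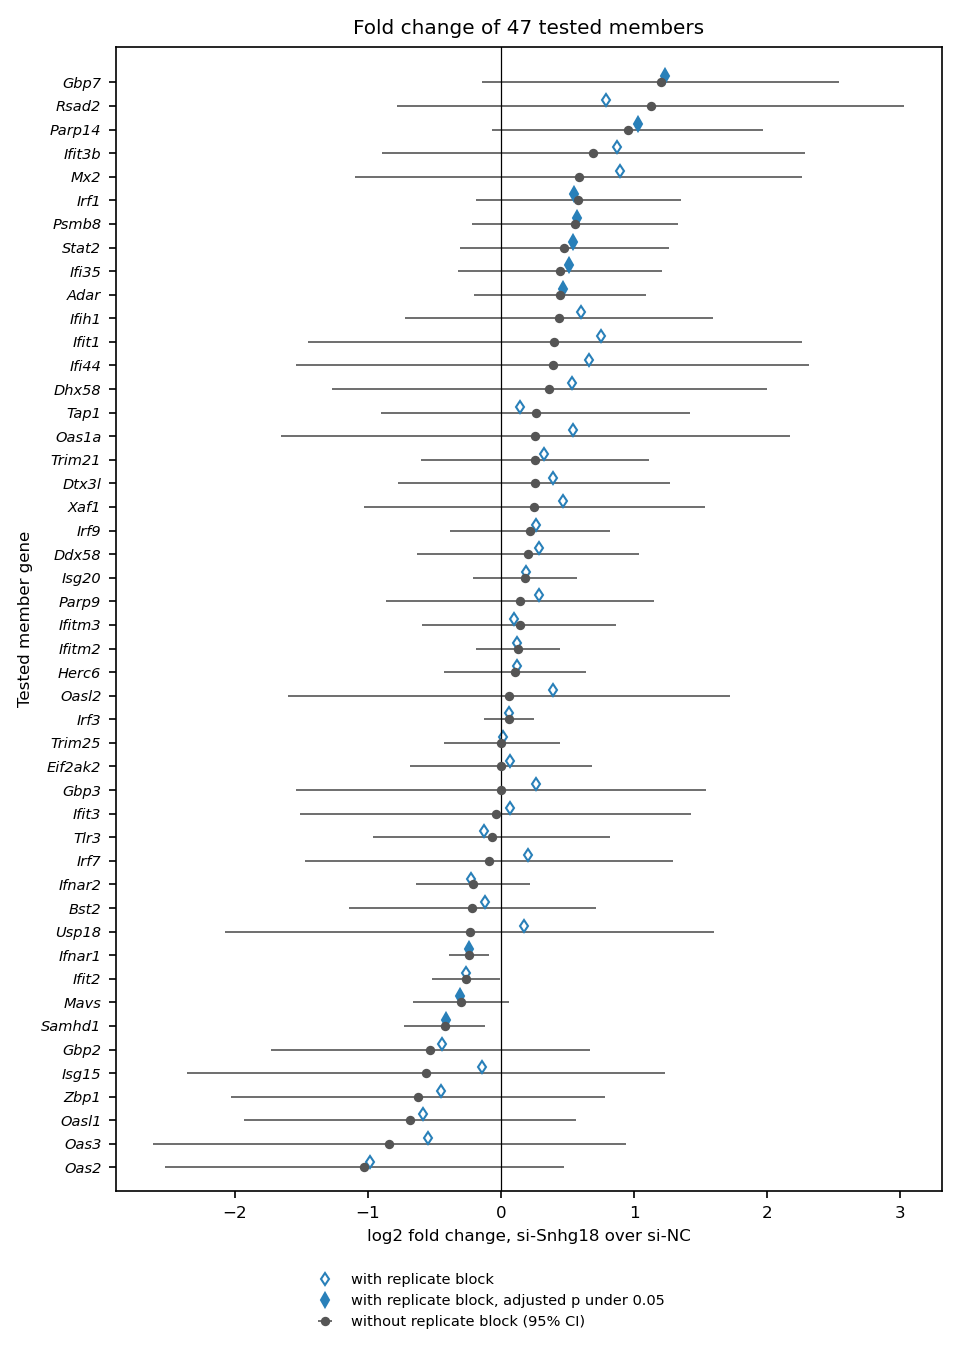
The log2 fold change of each of the 47 tested members (rows), si-*Snhg18* over si-NC. Grey points with bars are the estimate and 95% confidence interval without pairing, and diamonds are the estimate with the replicate number as a block, filled where the adjusted p was under 0.05. Intervals of 3 members, *Ifnar1*, *Ifit2* and *Samhd1*, leave out 0, all on the lower side, and the 10 filled diamonds are 7 above 0 and 3 below.

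The members differed more among the control libraries than among the si-*Snhg18* libraries. The highest of the 3 si-NC values was 2.96 times the lowest at the median of the tested members, against 1.23 times for all tested genes, and this ratio was above 2 for 31 members (66%, against 11.6% of all genes). Among the si-*Snhg18* libraries the median ratio was 1.61, against 1.36 for all genes, and 16 members (34%, against 20.6%) were above 2. The order was shared by most members. si-NC 1 was the highest control library for 39 members (83%, against 25.2%), si-NC 3 was the lowest for 41 (87.2%, against 34.1%), and both held for 37 (78.7%, against 9.24%). si-*Snhg18* 3 was the lowest library of its group for 37 members (78.7%, against 22%). It was also the library with the fewest reads, and whether depth had a part in this was not tested.

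**Figure D2:**
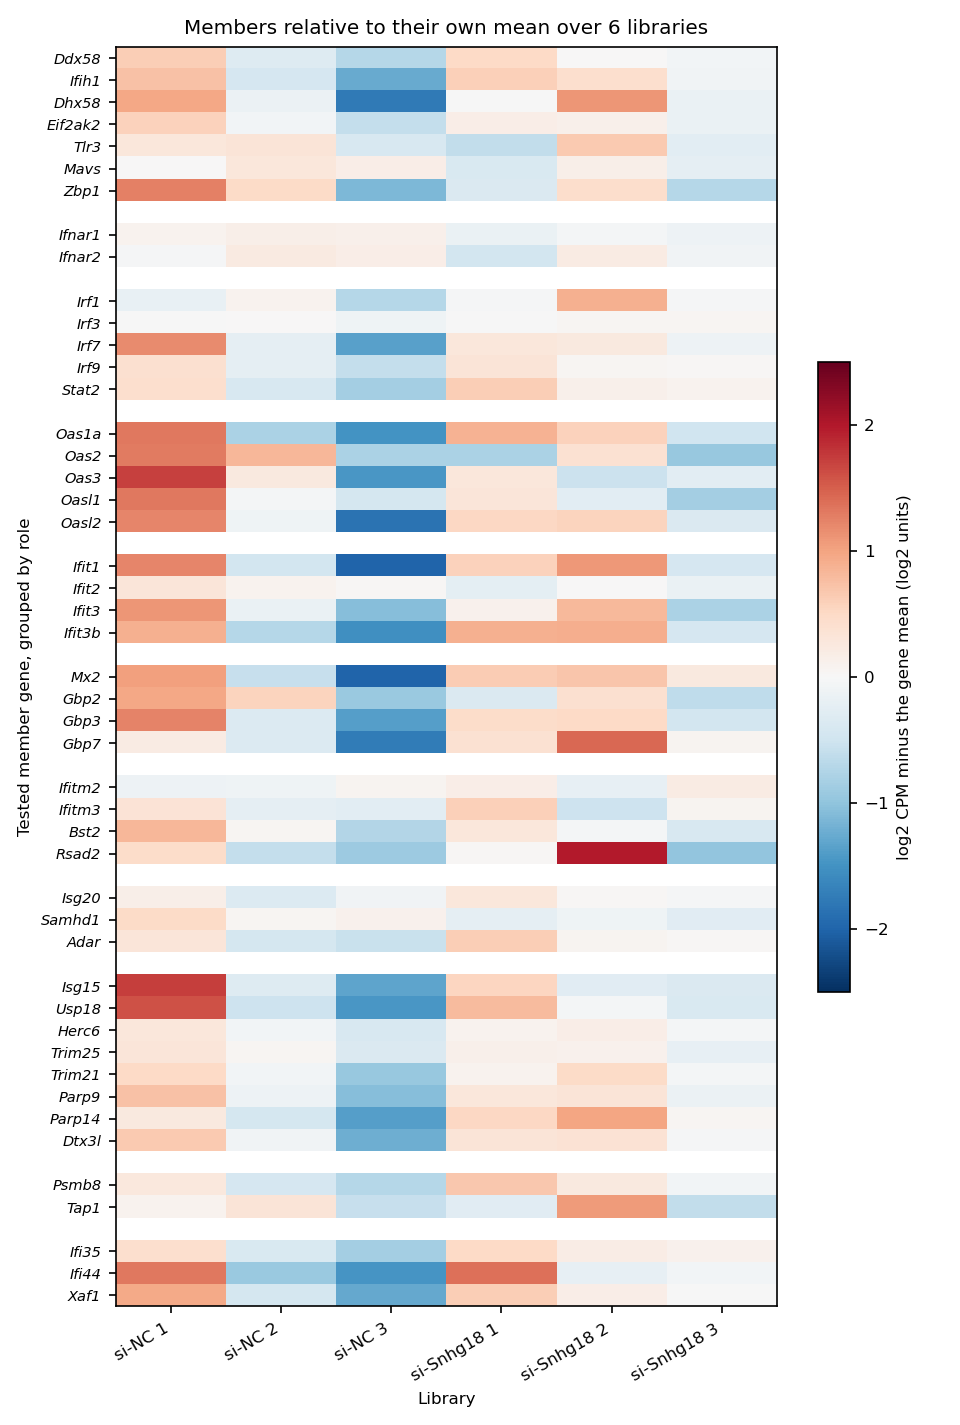
Each row is a tested member, grouped by role, and each column a library. Colour gives log2 CPM minus the mean of that gene over the 6 libraries, red above and blue below. The column of si-NC 1 is mostly red and that of si-NC 3 mostly blue (median deviations 0.57 and -0.84), while *Mavs*, *Ifnar1*, *Irf3*, *Ifit2* and *Ifitm2* are pale in every column.

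**Figure D3:**
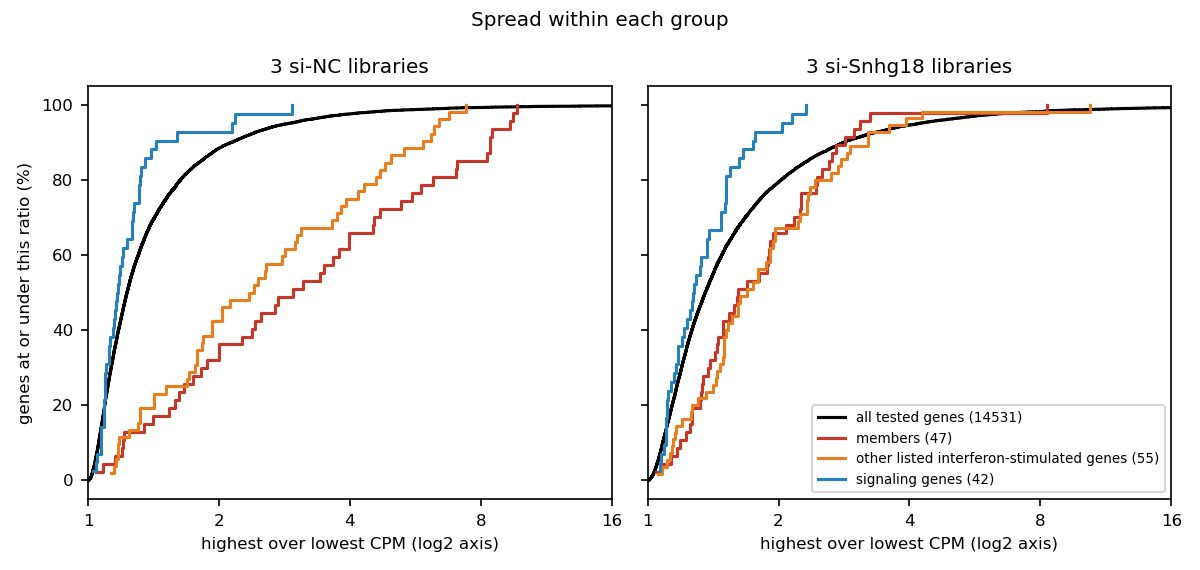
The share of genes (percent) whose highest CPM within a group was at or under a given multiple of the lowest (log2 axis, drawn up to 16), for si-NC (left) and si-*Snhg18* (right). In si-NC the line of the members (median ratio 2.96) lies far to the right of that of all tested genes (1.23), and in si-*Snhg18* the lines lie closer (1.61 and 1.36).

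*Isg15* and *Usp18* were among the members with the widest range of control values. *Isg15* encodes a ubiquitin-like protein that is conjugated to other proteins after interferon, and it was measured at 84.8, 20.4 and 10.1 CPM in si-NC 1, 2 and 3 and at 37.1, 21.0 and 19.7 CPM in si-*Snhg18* 1, 2 and 3. All si-*Snhg18* values lay between the highest and the lowest control value. The means were 38.4 ± 40.5 and 25.9 ± 9.68 CPM (SD, n = 3 each), and the log2 fold change of -0.57 (95% CI -2.36 to 1.23) was smaller than the spread between control libraries. *Usp18*, the protease that removes ISG15 and restrains the interferon receptor, was measured at 66.5, 15.3 and 7.92 CPM with si-NC and at 38.1, 21.2 and 16.9 CPM with si-*Snhg18*. Its groups overlapped in the same way, with a log2 fold change of -0.23 (SE 0.77) that was 0.17 with the pairing.

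The other genes of ISG15 conjugation, ubiquitin ligation and ADP-ribosylation varied less. *Parp14*, an ADP-ribosyltransferase, was measured at 40.0, 24.97 and 12.8 CPM with si-NC and at 48.2, 67.1 and 35.0 CPM with si-*Snhg18*. Each si-*Snhg18* library was above the si-NC library of its number, although the lowest si-*Snhg18* value was below the highest control value. The log2 fold change was 0.95 (SE 0.43, adjusted p = 0.228, edgeR), and with the pairing it was 1.03 (SE 0.22, adjusted p = 0.0145). *Parp9* and *Dtx3l*, whose products form a complex of an ADP-ribosyltransferase-like protein and a ubiquitin ligase, had ratios of 3.48 and 3.67 among the controls and log2 fold changes of 0.15 and 0.25 that did not pass. They overlap on opposite strands of chromosome 16 over 682 bases, and the strand setting of the counting is not given in the sources used here. *Trim25*, a ubiquitin ligase that acts on RIG-I, *Trim21*, a cytosolic antibody receptor, and *Herc6*, the ISG15 ligase of mice, had log2 fold changes of 0.00, 0.25 and 0.11.

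Among the RNA sensors, the RIG-I gene *Ddx58* was measured at 164.7, 86.2 and 66.0 CPM with si-NC and at 153.4, 108.5 and 102.9 CPM with si-*Snhg18*. *Ifih1*, which encodes the long-duplex sensor MDA5, was measured at 39.6, 17.8 and 9.95 CPM and at 36.3, 32.2 and 22.6 CPM. In both genes si-NC 1 was the highest of all 6 libraries and si-NC 3 the lowest, with log2 fold changes of 0.20 (SE 0.35) and 0.44 (SE 0.48). The third member of that family, *Dhx58*, which encodes the regulator LGP2, was measured at 9.79, 4.49 and 1.40 CPM with si-NC and at 4.94, 10.8 and 4.38 CPM with si-*Snhg18*. Its highest value was thus in si-*Snhg18* 2, and the groups overlapped (log2 fold change 0.36, SE 0.68). *Eif2ak2*, the gene of the duplex RNA-activated kinase PKR, was measured at 130.5, 83.2 and 57.7 CPM with si-NC and at 98.4, 95.5 and 77.8 CPM with si-*Snhg18*. The means, 90.5 ± 36.9 and 90.6 ± 11.1 CPM (SD, n = 3 each), were almost equal, with a log2 fold change of 0.00 and a 95% CI of -0.68 to 0.68.

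*Zbp1*, a sensor of Z-form nucleic acid, was measured at 66.8, 39.1 and 12.7 CPM with si-NC and at 21.8, 38.1 and 17.0 CPM with si-*Snhg18*. The control library si-NC 1 was again the highest, and the log2 fold change was -0.62 (SE 0.59). *Tlr3*, the endosomal receptor of duplex RNA, was measured at 10.3, 10.6 and 6.39 CPM and at 5.50, 13.4 and 7.01 CPM, and the groups overlapped (log2 fold change -0.07, SE 0.37). The adaptor *Mavs*, through which RIG-I and MDA5 signal, did not share the order of the sensors. It was measured at 39.5, 47.6 and 43.9 CPM with si-NC and at 30.1, 43.0 and 33.4 CPM with si-*Snhg18*, lower in each of the 3 pairs with overlapping groups. The log2 fold change was -0.30 (SE 0.15, adjusted p = 0.277, edgeR), and with the pairing it was -0.31 (SE 0.08, adjusted p = 0.0318). Without si-*Snhg18* 2, the si-*Snhg18* library in which *Mavs* was highest, edgeR called *Mavs* and *Ifnar1* without the pairing, with adjusted p = 0.0312 and 0.0324.

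*Ifnb1*, the gene of interferon beta, had 1 read in all, in si-*Snhg18* 2, and 0 reads in the other libraries. A count of 0 allows up to 0.115 to 0.166 CPM in a library of these depths. The receptor subunit gene *Ifnar1* was among the steadiest members, at 84.6, 88.5 and 87.0 CPM with si-NC and 71.1, 76.8 and 72.8 CPM with si-*Snhg18*. All si-*Snhg18* libraries lay below all control libraries, by a log2 fold change of -0.24 (SE 0.06), or 0.848 times. The adjusted p was 0.0767 with edgeR, 0.0257 with DESeq2 and 0.0214 with edgeR and the pairing. *Ifnar2*, the other receptor subunit gene, was measured at 18.2, 21.7 and 20.9 CPM and at 13.6, 21.4 and 17.5 CPM, lower in each of the 3 pairs but with overlapping groups (log2 fold change -0.21, adjusted p = 0.515, edgeR).

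The transcription factor genes split into steady and variable members. *Irf3*, the factor that is activated by phosphorylation downstream of the sensors, was nearly level, at 31.5, 31.9 and 29.5 CPM with si-NC and 31.3, 32.7 and 32.7 CPM with si-*Snhg18*. *Irf7*, whose own transcription is raised by interferon, was measured at 55.2, 20.9 and 9.48 CPM with si-NC and at 29.7, 28.7 and 22.1 CPM with si-*Snhg18*. Its control libraries differed 5.82 times and its si-*Snhg18* libraries 1.34 times, with all si-*Snhg18* values inside the control range. *Irf9*, the DNA-binding partner of STAT2, was measured at 65.5, 42.4 and 32.8 CPM and at 62.2, 51.02 and 50.8 CPM, again inside the control range.

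*Stat2*, the partner of IRF9, was measured at 162.2, 92.7 and 67.9 CPM with si-NC and at 186.6, 132.9 and 129.1 CPM with si-*Snhg18*. Each si-*Snhg18* library was above the control of its number, and the log2 fold change was 0.47 (SE 0.33, adjusted p = 0.415, edgeR), or 0.54 with the pairing (SE 0.12, adjusted p = 0.0173). *Irf1*, an early response factor that also answers to interferon gamma, was measured at 11.2, 13.6 and 7.79 CPM and at 12.5, 23.7 and 12.5 CPM. It too was higher in 3 of 3 pairs with overlapping groups, at 0.58 without the pairing (adjusted p = 0.318, edgeR) and 0.55 with it (adjusted p = 0.0313).

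The OAS family, several of whose products make the second messenger that activates RNase L, had a median ratio of 8.25 among the controls over its 5 genes. It was the highest of the 11 role groups. *Oas1a* was measured at 3.49, 0.734 and 0.423 CPM with si-NC and at 2.53, 2.04 and 0.931 CPM with si-*Snhg18*, and the groups overlapped (log2 fold change 0.26, SE 0.80). *Oas2*, *Oas3* and *Oasl1* had estimates of -1.03, -0.84 and -0.68, none of which passed, and *Oasl2* was at 0.06. Of the 50-base stretches of *Oas1a* transcripts, 57.6% also occur in *Oas1g*, so that its reads could have been divided between these genes.

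The IFIT genes, whose products bind the ends of foreign RNA, lie together on chromosome 19 between 34550694 (*Ifit2*) and 34650009 (*Ifit1*) in GRCm38, and neighbours in this cluster behaved differently. *Ifit1* was measured at 47.8, 14.7 and 5.04 CPM with si-NC and at 30.4, 43.3 and 15.3 CPM with si-*Snhg18*, a ratio of 9.49 among the controls, and the groups overlapped. *Ifit2* was measured at 66.8, 57.6 and 55.2 CPM and at 46.0, 54.7 and 48.7 CPM, a ratio of 1.21 among the controls, and all si-*Snhg18* libraries were lower (log2 fold change -0.27, SE 0.11, adjusted p = 0.189, edgeR). *Ifit3* was measured at 32.4, 13.3 and 7.15 CPM and at 16.1, 26.5 and 8.60 CPM, with overlapping groups. *Ifit3* and *Ifit3b* share much of their sequence (51.2% of the 50-base stretches of *Ifit3* occur in *Ifit3b*), and the division of reads between them is uncertain.

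The antiviral GTPase genes held *Gbp7*, with the highest estimate of the tested members. *Gbp7* was measured at 7.07, 4.86 and 1.78 CPM with si-NC and at 8.07, 16.9 and 6.46 CPM with si-*Snhg18*. si-*Snhg18* 2 stood above the other libraries, and each pair was higher with si-*Snhg18*. The log2 fold change was 1.20 (SE 0.56, adjusted p = 0.245, edgeR), or 1.23 with the pairing (SE 0.33, adjusted p = 0.0301). Its neighbours on chromosome 3, *Gbp3* and *Gbp2*, were at 0.00 and -0.53, and *Mx2* on chromosome 16 was at 0.58, none of them called. *Mx1*, which blocks influenza virus and is annotated here as a polymorphic pseudogene, had 1 read in the si-NC libraries together, in si-NC 1, and 6, 15 and 2 reads in the si-*Snhg18* libraries. This is 23.6 times as high in pooled CPM (95% exact interval 3.83 to 971, for counting error only), but it was under the filter on low counts, and without the filter its adjusted p was 0.127 (edgeR).

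Effectors that act at membranes included the most abundant members. Per transcript length, *Ifitm3*, a restriction factor of virus entry, was highest, at 736.9 to 1130 TPM (reads per exon length, scaled to a common total) with si-NC and 643 to 1297 TPM with si-*Snhg18*. *Bst2*, which tethers budding virions, followed at 150.5 to 445.4 and 191.2 to 294.1 TPM, and these ranges did not meet those of *Ifitm3*. *Isg15*, at 33.4 to 281 TPM with si-NC, overlapped both *Bst2* and *Ifitm2* (101 to 116.3 TPM), so that its place in the order was not fixed, whereas *Bst2* and *Ifitm2* did not overlap. In CPM, *Ifitm3* was measured at 328.9, 220 and 214.3 with si-NC and at 390.8, 179.8 and 269.8 with si-*Snhg18*, and *Bst2* at 151.4, 87.2 and 51.1 and at 103.5, 81.6 and 64.2. The groups of both overlapped, with log2 fold changes of 0.14 and -0.22. *Rsad2*, the gene of viperin, was measured at 3.75, 1.75 and 1.40 CPM with si-NC and at 2.77, 10.9 and 1.31 CPM with si-*Snhg18*. Its estimate of 1.13 (SE 0.80) rested on si-*Snhg18* 2, and was -0.15 without that library.

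Among the enzymes that act on nucleic acids, *Samhd1*, which breaks down deoxynucleotides, was measured at 100.2, 74.6 and 77.6 CPM with si-NC and at 61.6, 67.3 and 59.5 CPM with si-*Snhg18*. All si-*Snhg18* libraries were lower, by a log2 fold change of -0.42 (SE 0.13), with adjusted p = 0.103 by edgeR, 0.0435 by DESeq2 and 0.0242 by edgeR with the pairing. *Adar*, which edits adenosine in duplex RNA and limits MDA5 signalling, was measured at 114.3, 68.1 and 62.7 CPM with si-NC and at 141.1, 97.0 and 94.8 CPM with si-*Snhg18*. The groups overlapped, but each pair was higher, and the log2 fold change of 0.44 (SE 0.27, adjusted p = 0.357, edgeR) was 0.47 with the pairing (SE 0.07, adjusted p = 0.00417). *Isg20*, an exonuclease, was at 0.18 and did not pass.

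The genes of antigen processing and the remaining members were mostly low. *Psmb8*, a subunit of the immunoproteasome, was measured at 5.44, 3.35 and 2.71 CPM with si-NC and at 7.24, 5.34 and 4.27 CPM with si-*Snhg18*. Each pair was higher, at 0.56 without the pairing (adjusted p = 0.341, edgeR) and 0.57 with it (adjusted p = 0.0465). *Tap1*, the peptide transporter, was at 0.26 without a call, and its neighbour *Psmb9* had 9 reads with si-NC and 28 with si-*Snhg18*, of which 23 were in si-*Snhg18* 2. *Ifi35* was measured at 28.9, 16.5 and 11.9 CPM and at 30.5, 24.5 and 23.0 CPM, with 0.45 without the pairing (adjusted p = 0.435, edgeR) and 0.51 with it (adjusted p = 0.0498). *Ifi44* and *Xaf1* followed the order of *Isg15* among the controls, with ratios of 7.05 and 4.70, and the 4th untested member, *Ifitm1*, had 16 and 10 reads in the groups.

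**Figure D4:**
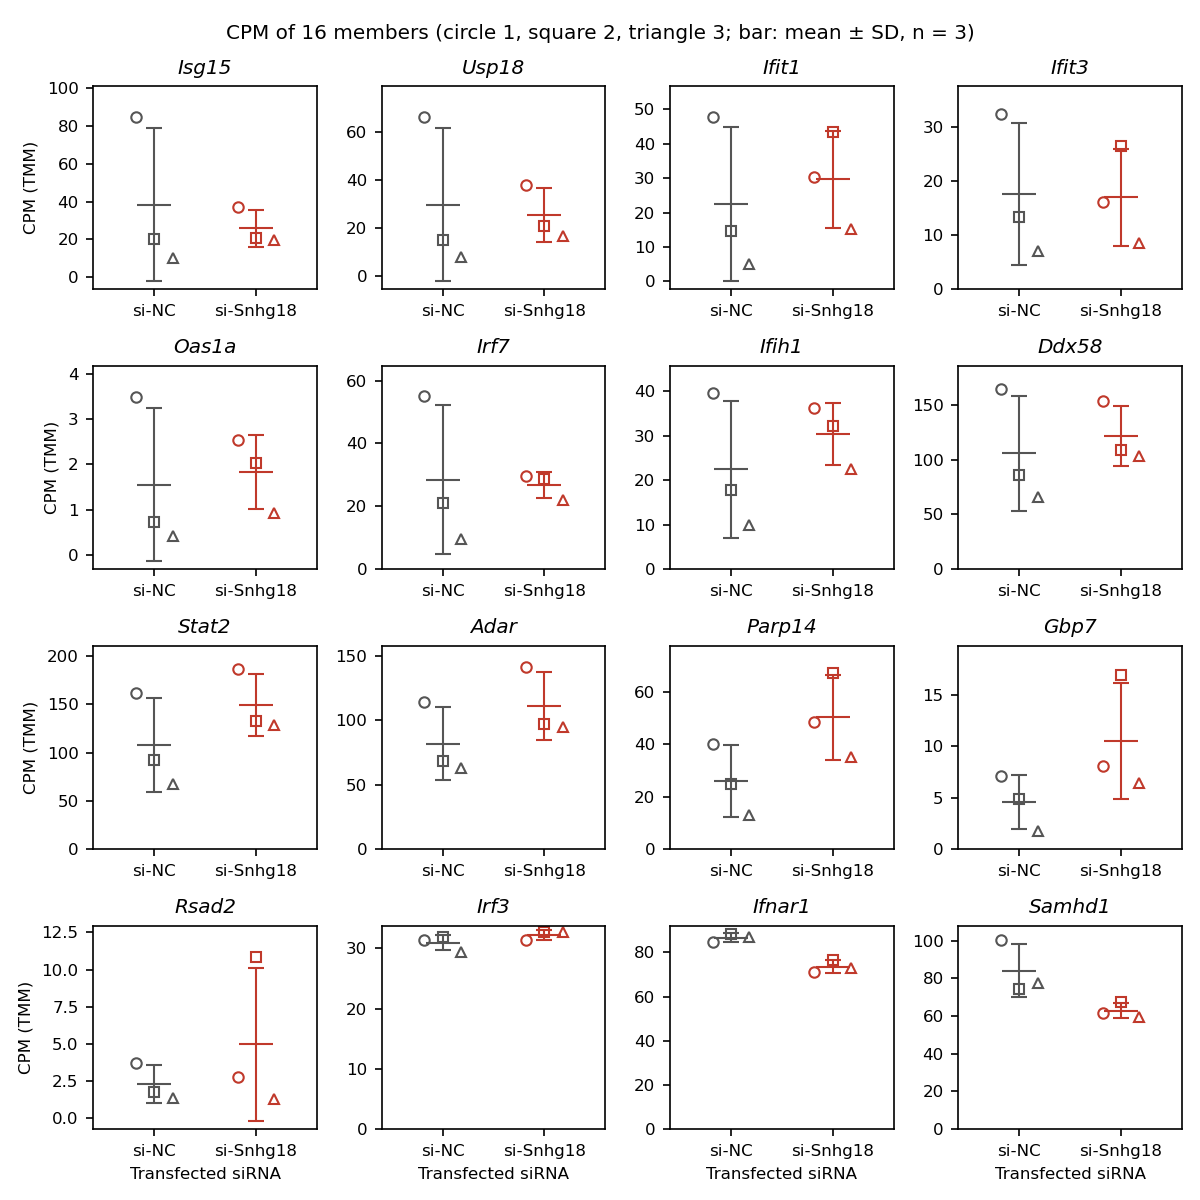
CPM (linear axes) of 16 members in each library, si-NC in grey and si-*Snhg18* in red, with circle, square and triangle for libraries 1, 2 and 3 and a bar for the mean ± SD (n = 3). For *Isg15*, *Usp18* and *Irf7* all red symbols fall between the circle and the triangle of si-NC, and for *Ifnar1* and *Samhd1* all red symbols fall below the grey ones.

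The direction of the difference depended on the pair. In the libraries numbered 1, 35 of 47 members were lower with si-*Snhg18* (median log2 difference -0.40), whereas 34 were higher in those numbered 2 (median 0.46) and 38 in those numbered 3 (median 0.64). Of all tested genes, 49.1%, 50% and 50.3% were higher in the same pairs. Across the 6 libraries the log2 CPM of 22 members had a Pearson correlation above 0.8 with *Isg15*, and 4 members (*Ifnar1*, *Ifnar2*, *Mavs* and *Ifitm2*) had one below 0. These correlations rest on 6 libraries and on shared library effects and are given as a description.

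Interferon-stimulated genes made up most of the genes that were highest in si-NC 1 relative to si-NC 3. Genes higher in si-NC 3 were not examined in this way. When the 11858 tested genes whose log2 CPM averaged 1 or more were ranked, the 20 with the highest ratio of si-NC 1 to si-NC 3 (5.56 to 14.3, median of all genes 1.00) held 11 members, led by *Oas3*, *Ifit1*, *Mx2*, *Oasl2*, *Isg15* and *Usp18*, and 6 genes of a list of other interferon-stimulated genes, such as *Rtp4* and *Iigp1*. The other 3 were *Gm44126*, *Srp54b* and *Mndal*, named after their values were seen. Among the first 50 there were 23 members and 19 of the other list. The first 100 held 32 members, 31 of the other list and 37 genes on neither. Since each library is a mixture of cells, fewer responding cells and less RNA per cell cannot be told apart.

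Some of these genes hold letters that match an ISRE close to their start. The promoters of 6 are shown so that the matches can be read. The promoter sequences are from RefSeq (GRCm38.p6), in which 43 of the 51 members were found. Over the 250 bases before each start, the letters TTCNNTTTC, read on both strands (GAAANNGAA on the other), occurred in 16 of the 43 genes (37.2%), against 8.18% of 27025 genes in the same table. The gamma-activated site, searched as TTCNNNGAA, which reads the same on both strands, occurred in 10 (23.3%), against 8.13%, and it overlapped an ISRE match in *Bst2*. Capitals mark the ISRE letters, overlapping matches run together, and each window ends at or before the annotated start of the gene.
*Isg15*, chr4:156200819-156200938, minus strand: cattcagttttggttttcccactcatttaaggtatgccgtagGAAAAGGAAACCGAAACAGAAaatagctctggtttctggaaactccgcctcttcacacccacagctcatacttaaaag
*Ifit1*, chr19:34640769-34640870, plus strand: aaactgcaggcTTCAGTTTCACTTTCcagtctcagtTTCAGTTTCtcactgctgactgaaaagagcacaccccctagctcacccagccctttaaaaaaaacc
*Oas3*, chr5:120777662-120777779, minus strand: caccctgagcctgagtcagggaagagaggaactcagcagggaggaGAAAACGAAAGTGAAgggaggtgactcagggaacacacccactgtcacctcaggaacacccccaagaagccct
*Oas1a*, chr5:120907526-120907645, minus strand: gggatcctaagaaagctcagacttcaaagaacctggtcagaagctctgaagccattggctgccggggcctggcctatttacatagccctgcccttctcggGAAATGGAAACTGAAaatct
*Gbp3*, chr3:142559924-142560025, plus strand: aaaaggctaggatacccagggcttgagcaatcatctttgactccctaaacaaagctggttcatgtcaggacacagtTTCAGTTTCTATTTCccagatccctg
*Gbp7*, chr3:142530216-142530335, plus strand: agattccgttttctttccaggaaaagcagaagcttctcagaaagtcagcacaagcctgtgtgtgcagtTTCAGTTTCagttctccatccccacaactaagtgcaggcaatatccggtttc

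*Isg15*, *Ifit1*, *Ifit3* and *Ifit3b* each hold 3 matches and had control ratios of 8.41, 9.49, 4.53 and 5.56, and *Oas3*, *Oas1a*, *Gbp3* and *Bst2* each hold 2 and had ratios of 9.68, 8.25, 6.23 and 2.96. Among the 16 members with a match, 13 had a control ratio above 2 (median 3.98, range 1.15 for *Ifitm2* to 9.68 for *Oas3*). Among the 24 tested members whose promoters lacked these letters, 11 had such a ratio (median 1.94, range 1.05 for *Ifnar1* to 8.48 for *Oasl2*). A match to these letters is a description of the window and not of binding.

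The order of the libraries was seen in other interferon-stimulated genes and not in a separate list of signaling genes. Among the members, si-NC 1 was highest and si-NC 3 lowest of the controls for 5 of 7 sensor and adaptor genes. The same held for 3 of 5 transcription factor genes. The list of other interferon-stimulated genes had 55 tested genes, of which 1 (1.82%, against 7.36% of all genes) was called, the antigen-presenting gene *H2-D1*, and 10 (18.2%, against 27.2%) with the pairing. *H2-D1* was measured at 121.6, 110 and 104.6 CPM with si-NC and at 182, 159.5 and 161.8 CPM with si-*Snhg18*, and rose by 0.58 on the log2 scale (SE 0.09, adjusted p = 0.0187, edgeR). The median deviation of this list from the gene mean was 0.46 in si-NC 1 and -0.87 in si-NC 3, close to the 0.57 and -0.84 of the members. Of 42 tested genes of interferon and nucleic acid sensing signaling, 4 (9.52%, against 7.36% of all genes) were called, all higher (where 3.65% of all genes were). With the pairing 12 (28.6%, against 27.2%) were called, 10 of 42 higher and 2 of 42 lower. Of all genes, 13.6% were called higher and 13.6% lower. The lower ones of the list were *Unc93b1*, which escorts Toll-like receptors, and the kinase gene *Ikbke*. The median deviation of this list was between -0.05 and 0.06 in every library.

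**Figure D5:**
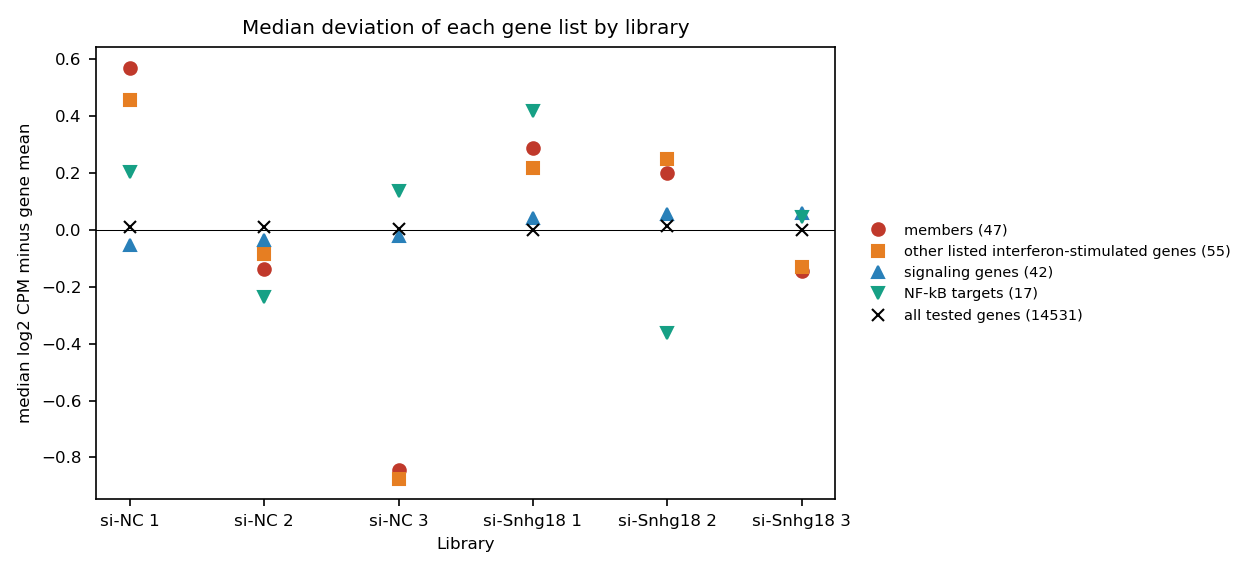
For each library, the median over a gene list of log2 CPM minus the gene mean; the number of tested genes is given in the key. The members and the other interferon-stimulated genes are near 0.5 in si-NC 1 (0.57 and 0.46) and under -0.8 in si-NC 3, and the signaling genes stay between -0.05 and 0.06.

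The 4 signaling genes that rose without the pairing were *Irf2*, a repressor of IRF1 targets, at 13.8, 15.1 and 14.3 against 30.1, 23.5 and 27.9 CPM (log2 fold change 0.92, SE 0.12, adjusted p = 0.0133, edgeR), *Ifngr2*, a subunit of the interferon gamma receptor (0.52, adjusted p = 0.0202, edgeR), *Rnf135*, a ubiquitin ligase that acts on RIG-I (0.83, adjusted p = 0.0289, edgeR), and *Tbkbp1*, a partner of the kinase TBK1 (0.70, adjusted p = 0.0385, edgeR). Their groups did not overlap. *Jak1*, the kinase bound to the interferon receptor, was measured at 277.8, 297 and 272.3 CPM with si-NC and 339.1, 364.2 and 329.8 CPM with si-*Snhg18*, with non-overlapping groups and a log2 fold change of 0.29 (adjusted p = 0.0636, edgeR, and 0.00812 with the pairing). Of this list, 10 of 56 genes had 0 reads in all libraries, among them the interferon genes *Ifna1*, *Ifna2*, *Ifna4*, *Ifng* and *Ifnl2*.

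Targets of NF-kB, the other arm of RNA sensing, had 1 call among 17 tested genes (5.88%, against 7.36% of all genes). *Icam1*, an adhesion molecule, was measured at 41.1, 41.1 and 36.6 CPM with si-NC and at 28.1, 24.1 and 25.95 CPM with si-*Snhg18*, and fell by 0.61 on the log2 scale (SE 0.10, adjusted p = 0.0208, edgeR). With the pairing, 8 genes (47.1%, against 27.2% of all genes) passed. Of the 17, 3 were higher and 5 lower, where 13.6% of all genes were called in each direction. The cytokine genes *Tnf* and *Il1b* had 0 reads in every library.

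The summed levels of marker lists did not share the order of the members, although some markers differed between the groups. The summed level of 12 leukocyte markers was 156.9, 113.1 and 155.4 CPM in si-NC 1, 2 and 3, so that si-NC 3 was near si-NC 1, and 112.6, 71.95 and 104.3 CPM with si-*Snhg18*. Most of it was the tetraspanin *Cd53*, which fell from 115.3, 94.7 and 116.3 to 51.1, 50.5 and 50.5 CPM (log2 fold change -1.10, adjusted p = 0.00727, edgeR), while *Ptprc*, the gene of the pan-leukocyte marker CD45, was at most 0.302 CPM with si-NC and 0.307 CPM with si-*Snhg18*. Of the 4 tested leukocyte markers 2 were above 0 and 2 below, and with the pairing 2 were called (50%, against 27.2% of all genes). *Cd14*, a coreceptor for bacterial lipopolysaccharide, was called higher (log2 fold change 0.57, adjusted p = 0.00369, edgeR) and *Cd53* lower. The summed CPM of the members was 2496, 1533 and 1176 with si-NC and 2133, 1814 and 1564 with si-*Snhg18*. The 7 endothelial markers summed to between 12.4 and 15.4 CPM. Of the 4 tested endothelial markers, 3 were above 0 and 1 below. With the pairing *Tek* alone was called, and it was lower (25%, against 27.2% of all genes called and 13.6% called lower). The 9 smooth muscle markers summed to between 2733 and 3800 CPM, and 7 of them were below 0. *Tagln* fell (log2 fold change -0.51, adjusted p = 0.0427, edgeR). With the pairing *Tagln*, *Myh11*, *Cnn1*, *Cald1* and *Des* were called lower (5 of 9, 55.6%). Of all genes, 27.2% were called with the pairing and 13.6% were called lower. The 6 fibroblast markers summed to 5058, 6732 and 5083 CPM with si-NC and to 3040, 5065 and 3515 CPM with si-*Snhg18*. Of these 5 were below 0 and 0 were called without the pairing. With it *Pdgfra*, *Col1a1*, *Col1a2* and *Thy1* were called lower (66.7%, against 13.6% of all genes called lower). Of 6 epithelial markers only *Krt18* could be tested, and it was called lower with the pairing (log2 fold change -1.94, adjusted p = 0.00216, edgeR). The part of these markers in the values of the members was not tested. Over the lists of other interferon-stimulated, signaling and NF-kB genes edgeR made 6 calls. It made 0 of these without si-NC 1, si-NC 2, si-NC 3 or si-*Snhg18* 3, and without si-NC 1, si-NC 3 or si-*Snhg18* 3 it called 0 of all genes.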

How the data were processed

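RNA from mPASMCs that had received si-NC or si-*Snhg18* (3 libraries each) was analysed from the deposited counts, whole numbers of reads per gene that the authors left without normalization, with exon lengths and positions on GRCm38. The kit was TruSeq Stranded mRNA. The submitters' processing notes name HISAT2 and mm10, and the counting program and strand setting are not given in the sources used here. In R 4.3.3, genes were kept by filterByExpr (edgeR 4.0.16, minimum count 10), scaled by TMM and tested by quasi-likelihood (glmQLFit, glmQLFTest). P-values were adjusted over 14531 genes by Benjamini-Hochberg. CPM carry TMM factors, log2 CPM a prior count of 2, TPM the file's exon lengths, and SEs and 95% intervals come from the quasi-likelihood F. Reads carry no molecular identifiers, so floors and count intervals cover counting error only. Totals per library were 18097718 to 25988746.

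The members and lists were chosen with earlier results of these data known. Any member could be named. Values in every library were given for *Snhg18*, members called with or without the pairing, sensors, receptor and transcription factor genes and 9 others set by name. In the other lists they were given for *H2-D1*, *Irf2*, *Icam1*, *Cd53* and *Jak1*. Other called genes of these lists have a fold change or a name only. A further gene set by name is not reported here.

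Pairing comes from the numbers 1 to 3 in the labels, which do not say what a number shares. Deviations of same-numbered libraries from their group means correlated at 0.41, 0.742 and 0.359 over 14531 genes, so a fit blocked on the number stands beside the members and lists whose calls it changed, although si-NC 3 correlated more with si-*Snhg18* 1 (0.497). Alternatives were DESeq2 1.42.0, limma-voom (limma 3.58.1), RLE factors, totals without TMM, other filters and thresholds, leaving out each library and, added after seeing the data, leaving out each pair from the blocked fit. Tests were tried on simulated data. Shared sequence was counted as 50-base stretches of GENCODE transcripts of GRCm38.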

Additional observations from a re-analysis of the deposited data

How the results depend on the processing

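With 3 libraries per group and a median SE of 0.43 for the members, beside 0.17 for all genes, the data could not resolve small changes of these genes. The count of members called stayed at 0 with RLE factors, library totals, limma-voom and both other filters. It was 2 with DESeq2 (both lower), 1 at an adjusted p under 0.1, 10 with the replicate block (7 higher, 3 lower), 31, 9 and 0 with the block and pair 1, 2 or 3 left out, and 0 to 2 when each library was left out (0 higher, 0 to 2 lower). All genes called numbered 1069, 2124 with DESeq2, 3954 with the block and 0 to 3281 without each library, with 0 without si-NC 1, si-NC 3 or si-*Snhg18* 3. The other lists held 6 calls, 14 with DESeq2, 30 with the block and 0 to 20 without each library. *Snhg18* ranged from -1.14 to -1.06 and its adjusted p was 0.0659, 0.07 and 0.0703 without si-NC 1, si-NC 3 and si-*Snhg18* 3 (edgeR). The block changed no member call other than the 10.

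Of 329 log2 fold changes of single members under the other alternatives, 316 kept their direction. The 13 that did not were *Eif2ak2* (-0.01) and *Trim25* (-0.008) without a filter, *Irf7* (0.29 with voom, 0.20 with the block), *Ifit3* (0.16, 0.064), *Usp18* (0.30, 0.17), and *Gbp3* with RLE (0.003), totals (0.006), voom (0.39), a CPM filter (0.00) and the block (0.26). The cause was not tested. Leaving out each library turned 44 of 282 values in 25 genes. Their ranges were -0.52 to 0.26 for *Bst2*, -0.041 to 0.67 for *Ddx58*, -0.16 to 1.19 for *Dhx58*, -0.10 to 0.77 for *Dtx3l*, -0.23 to 0.36 for *Eif2ak2*, -0.42 to 1.01 for *Gbp3*, -0.048 to 0.29 for *Herc6*, -0.31 to 1.75 for *Ifi44*, -0.07 to 1.58 for *Ifit1*, -0.50 to 0.74 for *Ifit3*, -0.18 to 0.37 for *Ifitm3*, -0.50 to 0.82 for *Irf7*, -1.02 to 0.77 for *Isg15*, -0.19 to 1.66 for *Oas1a*, -1.31 to 0.24 for *Oas3*, -1.02 to 0.031 for *Oasl1*, -0.41 to 1.03 for *Oasl2*, -0.19 to 0.69 for *Parp9*, -0.15 to 1.66 for *Rsad2*, -0.44 to 0.55 for *Tap1*, -0.55 to 0.17 for *Tlr3*, -0.043 to 0.64 for *Trim21*, -0.15 to 0.16 for *Trim25*, -0.68 to 1.13 for *Usp18* and -0.13 to 1.08 for *Xaf1*.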
